A study of Rattus norvegicus with 12 samples.

Results

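The genes of the cAMP phosphodiesterases, the enzymes that hydrolyse cAMP, were examined in ND7/23 cells, a line made by fusing neurons of rat dorsal root ganglia with the mouse neuroblastoma N18Tg2. The set held 10 of the 21556 genes in the table, found by symbol: Pde3a, Pde3b, Pde4a, Pde4b, Pde4c, Pde4d, Pde7a, Pde7b, Pde8a and Pde8b. The study asked how TRPM8, the receptor activated by cold and menthol, acts on Wnt/β-catenin signaling, and compared 4 groups of 3 libraries: control, menthol at 100 μM, Wnt3a at 100 ng/ml, and menthol with Wnt3a at the same doses, with 6 h of stimulation. All 12 libraries came from the same line, with no genetic change between groups, and the stimulation medium named in the methods was DMEM with penicillin/streptomycin. The methods mention a principal component analysis to assess biological duplication, but neither the vehicle of the control nor how the cultures of the replicates were set up is given in the sources used here, so the p-values measure only the spread between these libraries, which may be technical.

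cAMP is made by adenylate cyclases and read by protein kinase A and Epac, and phosphodiesterases end the signal by opening the cyclic ring. The PDE4, PDE7 and PDE8 families are specific for cAMP, whereas PDE3 enzymes also bind cGMP, which slows their breakdown of cAMP. PDE4 enzymes are the major cAMP-degrading family of many neurons and immune cells and the target of rolipram, and protein kinase A phosphorylates their long forms, which raises their activity. PDE7 and PDE8 enzymes are not inhibited by rolipram. Several PDE4 genes are transcribed from more than 1 promoter into long and short forms, and transcription of some PDE4 forms is raised by cAMP through CREB.

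Between 36920743 and 38842283 fragments lay behind each library's FPKM (read fragments scaled by exon length and by the library's total), and 16983 to 17386 genes were above 0. These totals were recovered from the FPKM values and lay close to the reads on the listed genes (38842283 against 38837023 in control replicate 1). Of 11 neuronal markers in the table, 3 had a mean of at least 0.5 FPKM, led by Uchl1 at 101 FPKM, while Tubb3, Prph, Stmn2, Gap43, Nefl, Nefm, Elavl4 and Pou4f1 were under it. Of 8 fibroblast markers, 5 were over 0.5 FPKM, led by Thy1, which neurons also carry, and Dcn, Lum and Postn were under it. Muscle, glial and immune markers summed to 8.25 to 11.1, 1.63 to 3.23 and 2.04 to 3.42 FPKM per library. How reads of mouse transcripts were assigned to the rat genes is not given in the sources used here.

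Pde4a had the smallest unadjusted p of the members over the 8 comparisons (limma, menthol main effect), and its mRNA can start at several places. The stretches around its starts are therefore shown where they held a cAMP response element core. RefSeq promoter windows (assembly GRCr8, 250 bases before to 50 after each start) were at hand for 6 of the 10 members, 14 windows in all. The full palindromic cAMP response element TGACGTCA was in 0 of the 14 windows and in 1.83% of all 33469 windows. Its core TGACG, searched on both strands and also contained in the full element, was in 5 of the 14 and in 21.2% of all windows. These 5 were 2 of the 4 windows of Pde4a, 2 of the 5 of Pde4d and the window of Pde8a. The TCF/LEF letters CTTTGAT, searched on both strands, were in 1 of the 14, a window of Pde4b, and in 3.63% of all windows. Below are the 2 Pde4a windows that held a core, both on the + strand of chromosome 8, with the core in capitals.
Pde4a window 1 (chr8:27966737-27967036): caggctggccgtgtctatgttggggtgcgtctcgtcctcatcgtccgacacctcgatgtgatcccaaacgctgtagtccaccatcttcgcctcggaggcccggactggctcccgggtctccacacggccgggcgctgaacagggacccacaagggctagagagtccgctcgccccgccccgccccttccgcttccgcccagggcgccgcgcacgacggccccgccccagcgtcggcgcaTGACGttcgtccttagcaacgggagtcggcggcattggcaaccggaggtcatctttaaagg
Pde4a window 3 (chr8:27999163-27999462): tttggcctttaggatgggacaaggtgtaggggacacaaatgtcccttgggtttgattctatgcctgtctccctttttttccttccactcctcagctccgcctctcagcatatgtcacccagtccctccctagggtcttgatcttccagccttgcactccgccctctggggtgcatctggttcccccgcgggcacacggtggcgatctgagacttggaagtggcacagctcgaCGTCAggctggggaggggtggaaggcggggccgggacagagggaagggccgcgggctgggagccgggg
In window 1 the core began 11 bases before the start, and in window 3 it lay on the other strand and began 18 bases before the start. The FPKM values are 1 per gene and do not separate the starts, so the windows describe the sequence only.

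Of the 10 members, Pde4a and Pde7a held nearly all of the transcripts. Together they held 96.1 to 98.1% of the FPKM summed over the 10 members and 92.5 to 96.0% of the reads. Pde4a, a rolipram-sensitive enzyme, had a mean of 4.87 FPKM over the 12 libraries (range 4.19 to 5.47), higher than 31.2% of the 11451 genes that had a mean of at least 0.5 FPKM and entered the tests. Pde7a, a rolipram-insensitive enzyme, had a mean of 4.71 FPKM (range 4.40 to 5.09), higher than 30.6% of them. Their ranges over the 12 libraries overlapped, so the pooled values did not order the pair. Within a library, the FPKM ratio of Pde4a to Pde7a was 1.07 to 1.13 after menthol and 1.03 to 1.21 after both. The ratio was 0.923 to 1.05 in the controls and 0.934 to 0.979 after Wnt3a. The order also rested on exon length: Pde7a had 2.37 to 3.11 times the reads of Pde4a in each library, and its exon length of 8300 bases against 2890 brought both to a like level per kilobase.

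Well below them came Pde4c and Pde4b, the other PDE4 enzymes with more than a few reads. Pde4c had a mean of 0.143 FPKM (32 to 73 reads per library) and Pde4b, the PDE4 gene prominent in leukocytes and brain, a mean of 0.123 FPKM (36 to 92 reads), and their FPKM ranges overlapped. Pde8a, a high-affinity cAMP phosphodiesterase, had 0.0302 FPKM (2 to 19 reads) and Pde4d, the longest gene of the set by exon length, 0.0148 FPKM (5 to 22 reads), and these overlapped as well. Within the PDE4 family, Pde4a had 12.9 to 29.1 times the summed FPKM of Pde4b, Pde4c and Pde4d, and 3.26 to 7.25 times their reads.

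The remaining 4 members were at or near 0 reads. Pde3a and Pde8b had 5 reads each in all 12 libraries together, Pde7b had 4, and Pde3b, the PDE3 enzyme of fat and liver, had 6. Of the Pde3b reads, 4 were in control replicate 2, the only library in which any of the 4 genes exceeded the floor of 3 reads. At this depth their levels were not distinguishable from 0, and no fold change is given for them. How reads of mouse transcripts were counted is not given, so these low counts do not show absence of the transcripts from the cells.

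**Figure D1:**
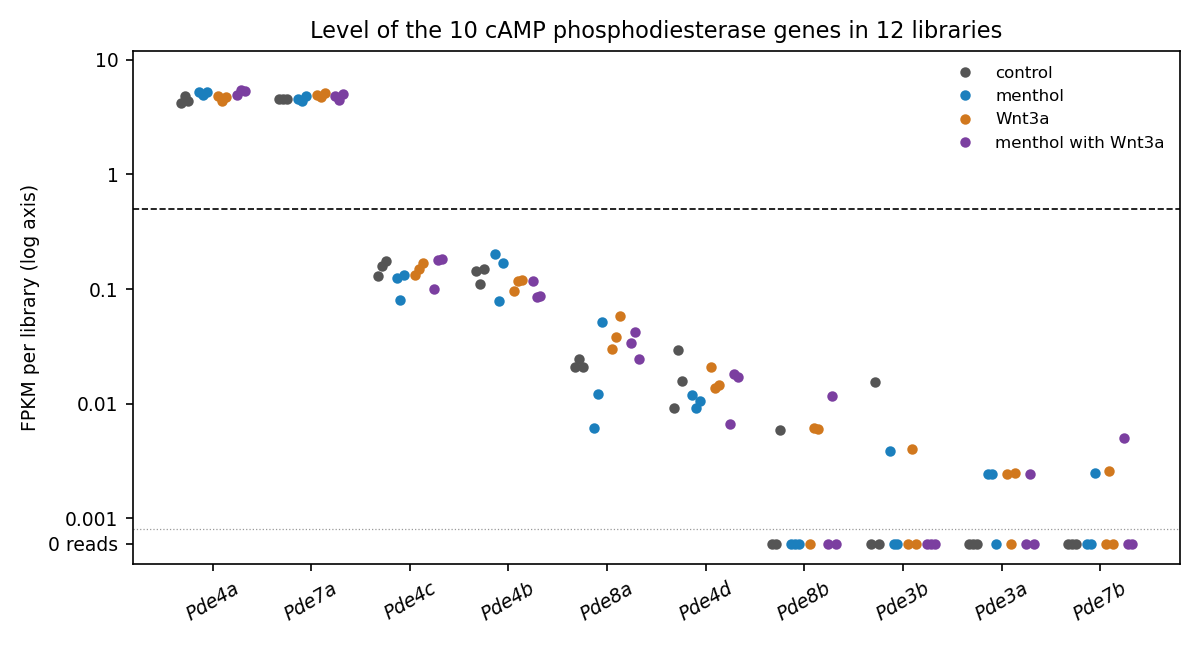
FPKM of each member (log axis) in each of the 12 libraries, coloured by group, with libraries at 0 reads drawn on the bottom line and the dashed line at the 0.5 FPKM needed for the tests. Pde4a and Pde7a lie between 4.19 and 5.47 FPKM in every library and the other 8 members lie below the dashed line.

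Of the other cyclic nucleotide phosphodiesterase genes, 12 of 14 were in the table and 2 had a mean of at least 0.5 FPKM. Neither encodes a catalytic subunit. Pde6d, whose product carries prenylated proteins and was first found with the photoreceptor enzyme, had a mean of 23.8 FPKM, and Pde6g, the inhibitory subunit of the rod enzyme, 0.512 FPKM. Neither passed an adjusted p of 0.05 in any of the 8 comparisons (limma). Some of these 12 genes encode enzymes that hydrolyse cAMP as well as cGMP and are not in the sums over the 10 members. Of these, Pde1b, a calmodulin-dependent enzyme named here after its values were seen, had a mean of 0.292 FPKM (13 to 70 reads per library). That mean was above those of Pde4c and Pde4b, but the FPKM ranges overlapped. Pde1a had 0.0588 FPKM (4 to 20 reads).

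Each member was then compared over the groups with limma on log2(FPKM + 0.1), fitted on the 11451 tested genes and called where the Benjamini-Hochberg adjusted p was under 0.05 and the change over 2-fold, the thresholds of the study. Pde4a and Pde7a were the 2 members tested. With both thresholds, 0 of the 2 were called in any of the 8 comparisons. The share of all tested genes called was 0.00873% for menthol versus control, 0.0175% for Wnt3a versus control and 0.00873% for the menthol main effect (the 6 libraries with menthol versus the 6 without). It was 0% for menthol with Wnt3a versus Wnt3a, versus menthol and versus control, for the interaction and for the Wnt3a main effect.

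Without the fold threshold, 0 members passed the adjusted p in any comparison. All tested genes passed it at 0.105% for menthol versus control, 0.437% for Wnt3a versus control, 0.0524% for menthol with Wnt3a versus Wnt3a, 0.0961% versus menthol and 0.83% versus control, and at 0% for the interaction, 1.15% for the menthol main effect and 0.803% for the Wnt3a main effect. At an unadjusted p under 0.05, Pde4a passed in 4 of the 8 comparisons, in which 9.34% (menthol versus control), 14.5% (menthol with Wnt3a versus Wnt3a), 13.5% (menthol with Wnt3a versus control) and 15.5% (menthol main effect) of all tested genes passed. Pde7a passed in 0, and in the other comparisons 15.1% (Wnt3a versus control), 6.72% (menthol with Wnt3a versus menthol), 6.99% (interaction) and 14.2% (Wnt3a main effect) of all tested genes passed.

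Pde4a had its higher levels in the libraries with menthol. It measured 4.19, 4.79 and 4.38 FPKM in control replicates 1 to 3 and 5.20, 4.92 and 5.21 FPKM after menthol. After Wnt3a alone it measured 4.79, 4.41 and 4.75 FPKM, and with both 4.98, 5.47 and 5.31 FPKM. The lowest of the 6 libraries with menthol lay above the highest of the 6 without, a separation with higher values in menthol that 0.795% of all tested genes showed. The groups also did not overlap for menthol versus control (higher in 7.48% of all tested genes), for menthol with Wnt3a versus Wnt3a (9.11%) and versus control (10.5%).

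The group means of Pde4a were 4.45 ± 0.308 FPKM in the controls, 5.11 ± 0.162 after menthol, 4.65 ± 0.207 after Wnt3a and 5.25 ± 0.251 after both (SD, n = 3 each). The log2 fold change was 0.20 for menthol versus control (SE 0.066, limma adjusted p = 0.384) and 0.17 for menthol with Wnt3a versus Wnt3a (SE 0.066, limma adjusted p = 0.268). For menthol with Wnt3a versus control it was 0.23 (limma adjusted p = 0.127). The menthol main effect was 0.18 on the log2 scale (95% confidence interval 0.083 to 0.285), a level 13.6% higher with menthol, with an unadjusted p of 0.00158 and an adjusted p of 0.0790 in limma. There, 228 of the 11451 tested genes had a smaller p. The difference was larger than the spread between libraries of a group and did not pass the adjustment over all genes.

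The summed fibroblast markers were lower in all libraries with menthol than in all without, and how often other gene sums separate was not counted. Thy1 alone averaged 141 FPKM of a mean sum of 272 FPKM, and the single genes were not compared. The sum of the 8 fibroblast genes was 283 to 290.04 FPKM in the controls and 273 to 277 with Wnt3a. It was 262 to 267 with menthol and 259.8 to 267 with both, and none of the 8 was at 0 reads. With both, the neuronal sum (120.5 to 132.4 FPKM) was above that of the controls (112.6 to 120.4). The glial sum with both (2.20 to 3.23) was also above the controls (1.98 to 2.14), whereas the muscle and immune sums overlapped. In bulk RNA fewer cells of a type and less RNA per cell cannot be told apart, and the part of these markers in the Pde4a difference was not tested. In GRCr8, the span of Pde4a also overlaps LOC134480144, and whether counting used strand is not given, so reads of this pair may not be separated.

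For Wnt3a no difference in Pde4a passed the test. The log2 fold change was 0.064 for Wnt3a versus control (95% confidence interval -0.079 to 0.206) and 0.038 for menthol with Wnt3a versus menthol (-0.105 to 0.180), with limma adjusted p-values of 0.693 and 0.965. The interaction, the difference between the menthol effects with and without Wnt3a, was -0.026 (-0.228 to 0.175, limma adjusted p = 0.965).

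**Figure D2:**
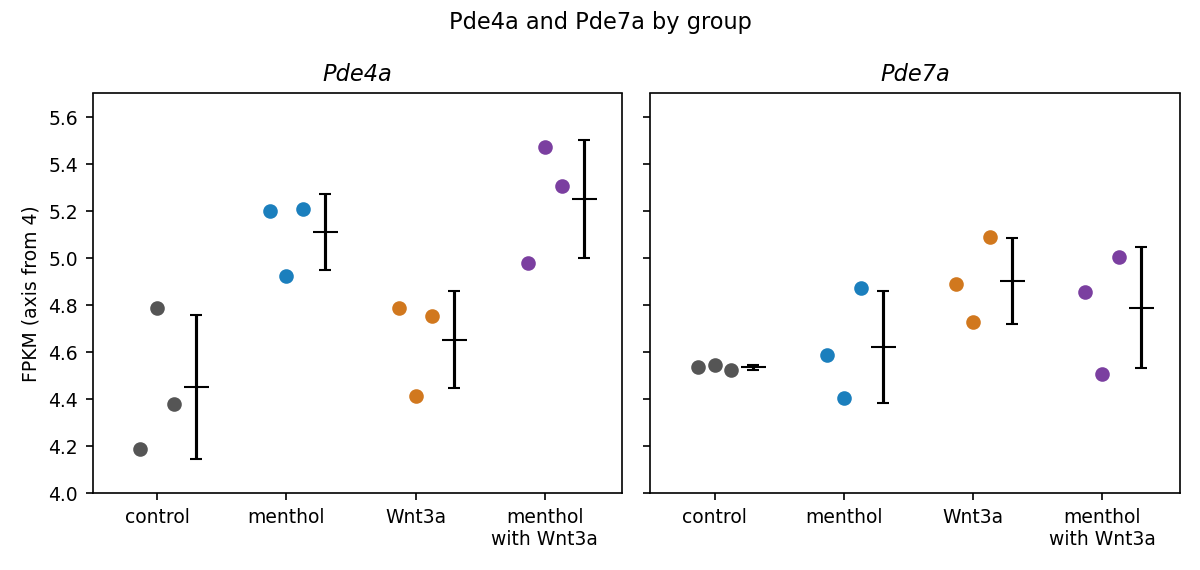
FPKM of Pde4a and Pde7a (axis from 4 FPKM) in the 3 libraries of each group, with the mean and SD beside the points. The 6 Pde4a points with menthol lie between 4.92 and 5.47 FPKM, above the 6 without, which lie between 4.19 and 4.79, whereas the Pde7a groups overlap except for control and Wnt3a.

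Pde7a did not show this arrangement. It measured 4.53, 4.55 and 4.52 FPKM in the controls and 4.59, 4.40 and 4.87 FPKM with menthol. With Wnt3a it measured 4.89, 4.73 and 5.09 FPKM, and with both 4.85, 4.51 and 5.01 FPKM. The 3 control values lay within 0.03 FPKM of each other, the menthol values fell on both sides of them, and the 3 Wnt3a values were all above them. Such a separation of Wnt3a from control, with higher values in Wnt3a, was shown by 10.1% of all tested genes. Menthol with Wnt3a overlapped menthol for both genes, where 5.97% of all tested genes were separated with higher values, and the 6 libraries with Wnt3a overlapped the 6 without, where 0.629% were.

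The group means of Pde7a were 4.53 ± 0.0123 FPKM in the controls, 4.62 ± 0.237 after menthol, 4.90 ± 0.182 after Wnt3a and 4.79 ± 0.256 after both (SD, n = 3 each). For menthol versus control the log2 fold change was 0.026 (95% confidence interval -0.108 to 0.159, limma adjusted p = 0.932). For the menthol main effect it was -0.0042 (-0.098 to 0.090, limma adjusted p = 0.979), so a change of more than 10% in either direction lay outside the interval. For Wnt3a versus control it was 0.11 (-0.023 to 0.243, limma adjusted p = 0.436), and for the Wnt3a main effect 0.080 (-0.014 to 0.174, limma adjusted p = 0.448).

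**Figure D3:**
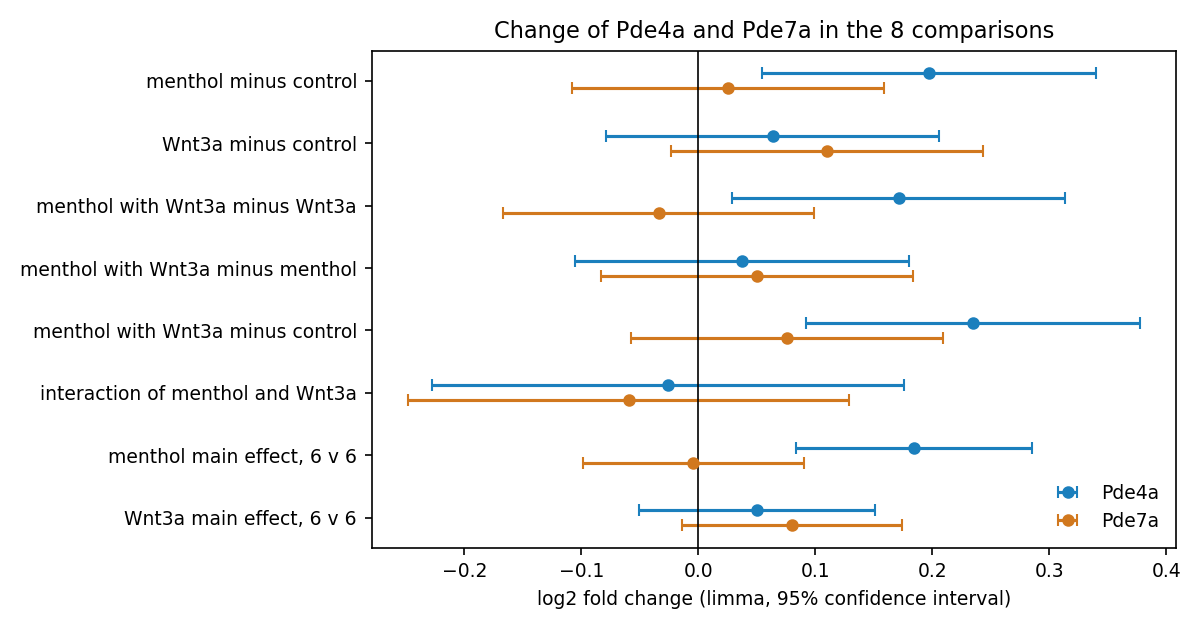
Log2 fold changes of Pde4a and Pde7a in the 8 comparisons, from limma, with bars for the 95% confidence interval before any adjustment. The Pde4a intervals exclude 0 in the 4 comparisons of libraries with menthol against libraries without it, with estimates from 0.17 to 0.23, and every Pde7a interval includes 0.

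The ratio of Pde4a to Pde7a within a library does not depend on the library's total. It was 0.981 ± 0.0660 in the controls, 1.11 ± 0.0336 after menthol, 0.949 ± 0.0265 after Wnt3a and 1.10 ± 0.1002 after both (FPKM ratio, SD, n = 3 each). Menthol with Wnt3a (1.03 to 1.21) did not overlap Wnt3a alone (0.934 to 0.979), and menthol (1.07 to 1.13) lay just above control (0.923 to 1.05). The FPKM summed over all 10 members was 9.32 ± 0.328 in the controls, 10.03 ± 0.478 after menthol, 9.88 ± 0.378 after Wnt3a and 10.3 ± 0.264 after both (SD, n = 3 each). The control and menthol sums overlapped, and the sum with both was above control in 3 of 3 libraries. The ratio and the sum use the same Pde4a values as above, and how often other gene pairs or sums separate was not counted.

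The low members were compared on the recovered reads with limma voom over all genes, as their FPKM was under the minimum for the main test. Pde4b had 66, 50 and 68 reads in the controls, 92, 36 and 77 after menthol, 44, 51 and 54 after Wnt3a and 53, 39 and 39 after both. Its menthol libraries alone spanned the whole range of the 12. The Wnt3a main effect had a log2 fold change of -0.41 (95% confidence interval -0.893 to 0.072, limma voom adjusted p = 0.582).

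Pde4c had 53, 63 and 70 reads in the controls, 50, 32 and 53 after menthol, 53, 57 and 67 after Wnt3a and 40, 73 and 72 after both. The menthol libraries held the lowest value, and the groups overlapped in each comparison made. The log2 fold change for menthol versus control was -0.47 (95% confidence interval -1.09 to 0.141, limma voom adjusted p = 0.787).

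Pde4d had 7, 22 and 12 reads in the controls, 9, 7 and 8 after menthol, 16, 10 and 11 after Wnt3a and 5, 14 and 13 after both. The groups overlapped in each comparison made. The interval for menthol versus control ran from -1.68 to 0.502 on the log2 scale, so a 2-fold lower level lay within the interval and was not detectable at this depth.

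Pde8a had 7, 8 and 7 reads in the controls, 2, 4 and 17 after menthol, 10, 12 and 19 after Wnt3a and 11, 14 and 8 after both. By FPKM the 3 Wnt3a libraries were above the 3 controls, as were those of 7.33% of all 21556 genes, and the libraries with both were above them by a margin under 1 read, as were those of 7.39%. The Wnt3a main effect had a log2 fold change of 0.89 (95% confidence interval 0.030 to 1.75) with an unadjusted p of 0.0434 and an adjusted p of 0.459 in limma voom, and rested on 119 reads in all. Of all 21556 genes, 10.3% had an unadjusted p under 0.05 there.

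**Figure D4:**
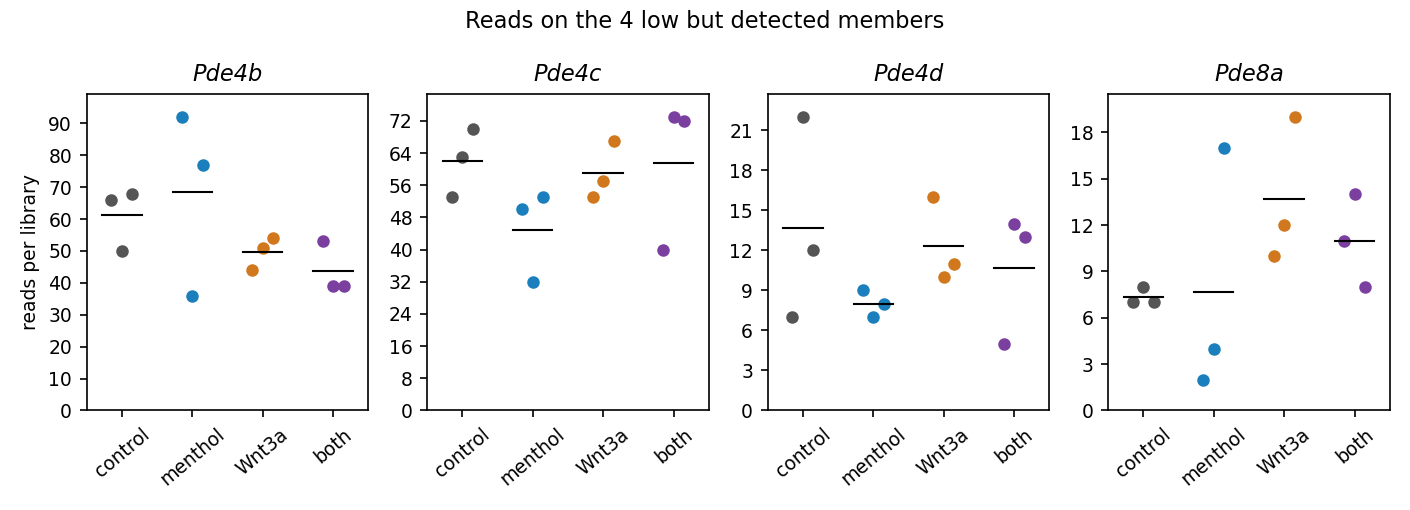
Reads per library on Pde4b, Pde4c, Pde4d and Pde8a by group (both: menthol with Wnt3a), with a line at the group mean. The y axis starts at 0 and differs between panels, and the points within a group spread from 36 to 92 reads for Pde4b with menthol and from 2 to 17 for Pde8a with menthol.

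The other genes of the cAMP pathway were taken from lists of 14 genes of cAMP synthesis, 14 effectors, 17 anchors and partners and 10 cAMP-responsive genes. Of the synthesis list, 6 genes were tested and 0 passed an adjusted p of 0.05 in any of the 8 comparisons (limma), and their median log2 fold change for the menthol main effect was 0.021 beside -0.00098 over all tested genes. Its most abundant gene was Gnai2, the α subunit of an inhibitory G protein, at 253 FPKM. Of the effectors, 12 were tested and 1, Prkar1b, passed in the Wnt3a main effect, while the most abundant, Prkar1a, a type I regulatory subunit of protein kinase A at 131 FPKM, did not. Of the anchors and partners, 14 were tested and 1, Akap12, passed, and the most abundant was Rack1, a scaffold that binds a PDE4D form, at 870.1 FPKM. Of the cAMP-responsive genes, 9 were tested and 1, Id1, passed, and the most abundant was Junb, an AP-1 factor, at 102 FPKM. For the Wnt3a main effect the median log2 fold change was -0.0053 over the tested effectors, -0.014 over the anchors and partners and 0.034 over the cAMP-responsive genes, beside 0.0032 over all tested genes. In the Wnt3a main effect, in which Prkar1b, Akap12 and Id1 passed, 0.803% of all tested genes passed the adjusted p. Akap12 also passed for Wnt3a versus control (0.437% of all tested genes). It passed as well for menthol with Wnt3a versus menthol (0.0961%) and versus control (0.83%). No gene of these lists was called with the 2-fold threshold.

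Akap12, also known as gravin, anchors protein kinase A and PDE4 enzymes at the membrane, and was the list gene with the smallest p. It measured 83.1, 75.6 and 77.5 FPKM in the controls, 76.4, 67.8 and 71.7 after menthol, 60.9, 59.0 and 63.5 after Wnt3a and 60.9, 57.5 and 58.0 after both. All 6 libraries with Wnt3a lay below all 6 without, and the share of all tested genes separated in that direction was not counted. It fell by 0.36 on the log2 scale for Wnt3a versus control (SE 0.047, limma adjusted p = 0.00714) and by 0.33 in the Wnt3a main effect (limma adjusted p = 0.000350), and both differences passed the adjusted p without each library in turn. For menthol with Wnt3a versus menthol the adjusted p of 0.0395 in limma rose to as much as 0.233 without 1 library, and was not under 0.05 in 8 of the 12 such fits.

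Prkar1b, the type I regulatory subunit enriched in neurons, measured 11.04 ± 0.182 FPKM in the controls, 9.87 ± 0.596 after menthol, 12.8 ± 0.886 after Wnt3a and 11.6 ± 0.187 after both (SD, n = 3 each). The Wnt3a main effect was 0.22 on the log2 scale (SE 0.039, limma adjusted p = 0.0177). That adjusted p was not under 0.05 without control replicate 1 or without replicate 2 of menthol with Wnt3a, with a highest value of 0.0537. The menthol main effect of Prkar1b was -0.15 (SE 0.039, limma adjusted p = 0.0813). Id1, an inhibitor of helix-loop-helix factors that BMP signals also induce, measured 10.2 ± 0.143 FPKM in the controls, 10.8 ± 0.448 after menthol, 12.6 ± 0.214 after Wnt3a and 12.7 ± 1.52 after both (SD, n = 3 each). Its Wnt3a main effect was 0.26 (SE 0.048, limma adjusted p = 0.0199), and the adjusted p was not under 0.05 in 6 of the 12 fits without 1 library, with a highest value of 0.0606.

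**Figure D5:**
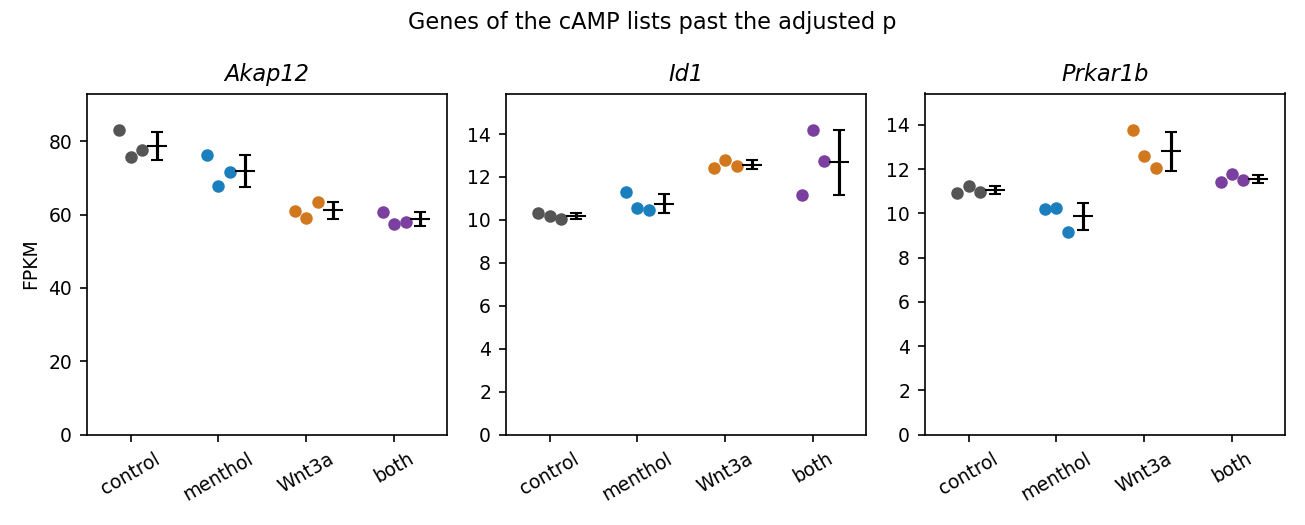
FPKM (axis from 0) of the 3 pathway genes that passed the adjusted p in any comparison, in the 3 libraries of each group (both: menthol with Wnt3a), with the mean and SD. Akap12 lies at 57.5 to 63.5 FPKM in the libraries with Wnt3a and at 67.8 to 83.1 FPKM in those without.

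Across the 12 libraries, the tested genes outside the phosphodiesterase family whose log2 levels were most like those of Pde4a were Exoc4, a subunit of the exocyst (Pearson's r 0.895, Spearman's rho 0.825), Snx4, a sorting nexin (0.886 and 0.993), and Ptp4a2, a phosphatase (0.877 and 0.902). These were the highest of 11447 genes over 12 libraries that share 4 groups, and are given as a description.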

How the data were processed

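RNA of 12 libraries (4 groups of 3, grouped by the labels' treatment) was analysed. Per the supplementary methods and the submitters' processing notes, the authors extracted RNA with TRIzol, used the VAHTS Universal V6 kit, filtered reads with fastp, aligned them with HISAT to mRatBN7.2, counted them with HTSeq and compared groups with DESeq2. Tool versions other than R 3.2.0, the annotation release and the strand setting are not given in the sources used here. The authors deposited FPKM per gene and library, without pooling. FPKM depends on the exon length used and on every other gene's reads.

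Whole reads were recovered from the steps of the FPKM values, and came out whole for 21556 of 21556 genes (largest relative distance 3.40e-13). Of these, 1804 were seen in a single library, so that 1 value gave their count. The floor was 3 reads, 0.0772 to 0.0813 FPKM on a gene of 1 kb, which covers counting error only.

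The main test was limma 3.58.1 (R 4.3.3) applied to log2(FPKM + 0.1) of the 11451 genes that averaged at least 0.5 FPKM, with 4 groups in 1 fit, a variance trend and no block for the replicate number. Adjustment was by Benjamini-Hochberg. The fold change is on that scale, which understates changes of low genes. Scripts were tested on simulated data. The alternatives were pseudocounts of 0.01 and 1, an FPKM minimum of 1 or none, centring each library on its median, the compared groups alone, a replicate block, limma voom on the recovered reads, other thresholds and leaving out each library. Voom without an FPKM minimum, and voom or the block without a fold threshold, were added after seeing the data.

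The members and lists were chosen with earlier results of these data known. Named are all members, other cyclic nucleotide phosphodiesterase genes with a mean of at least 0.5 FPKM, each list's most abundant gene and those past an adjusted p of 0.05, and the 3 genes most like Pde4a.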

Additional observations from a re-analysis of the deposited data

How the results depend on the processing

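No member was called in any comparison under any alternative that kept an adjusted p. With an unadjusted p under 0.05 and no fold threshold, the count went from 0 to 1, Pde4a in each case, for menthol against control, menthol with Wnt3a against Wnt3a, menthol with Wnt3a against control and the menthol main effect. The Pde4a menthol main effect ranged from 0.16 to 0.21 on the log2 scale over 20 alternatives, with limma adjusted p-values of 0.0703 to 0.186, the highest without replicate 2 of menthol with Wnt3a. With limma voom on the recovered reads its adjusted p was 0.0948.

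Leaving out 1 library at a time turned the direction of 4 differences near 0. These ranged from -0.079 to 0.016 for the Pde4a interaction, from -0.012 to 0.059 for Pde7a in menthol against control, from -0.066 to 0.0083 for Pde7a in menthol with Wnt3a against Wnt3a, and from -0.023 to 0.017 for its menthol main effect.

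Replicate numbers are shared between groups, but same-numbered libraries correlated at -0.055 to 0.153 (deviations from group means), 1 of 18 pairs was over 0.1 and 7 of 12 libraries were closest to their own number. With the replicate number as a block, 0 members were called in each of the 8 comparisons, and the adjusted p of the Pde4a menthol main effect was 0.0913.

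Of the members given a fold change, Pde4d and Pde8a had the fewest reads, 2 to 22 per library. For menthol versus control, the 95% confidence interval of the log2 fold change from limma voom ran from -1.68 to 0.502 for Pde4d and from -1.73 to 0.889 for Pde8a.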
